A study of Homo sapiens with 2 samples.

Results

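The Golgi glycosyltransferases described here are the genes whose symbol in the array's annotation begins with one of these family names: the N-glycan branching enzymes (MGAT), the fucosyltransferases (FUT), the galactosyltransferases (B3GALT, B4GALT), the N-acetylglucosaminyltransferases of chains and branches (B3GNT, GCNT), the mucin-type initiators (GALNT, GALNTL), the sialyltransferases (ST3GAL, ST6GAL, ST8SIA) and the Golgi mannosidases (MAN1A, MAN2A). Of 18417 genes with a probe set of their own on the array, 87 belonged to the set. RefSeq lists 84 of them as protein-coding, 2 as transcribed pseudogenes (MGAT4EP and GCNT7) and 1 as a long non-coding RNA, B3GALT5-AS1, which the symbol rule takes in although it encodes no enzyme. Detection required that at least 1 of a gene's values be at or above 4.658 on the log2 scale. This is the median over every probe set of the pair of arrays, a convention and not a measured background. By that rule 48 of the 87 were detected. The set was proposed with the differences between these arrays already known, so its values are a description and support no statement about the family.

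Expression was measured in Huh-7 cells, an established line from a human hepatocellular carcinoma. One array held RNA from cells transfected with siRNA against DEPDC1, and the other RNA from cells transfected with NC, labelled as the control. Both were collected 72 h after transfection, and a single biological replicate of each was labelled and deposited. The sequence and number of the siRNAs are not given in the sources used here, and all values come from 1 cell line.

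Glycoproteins leaving the endoplasmic reticulum carry a common oligosaccharide, which Golgi mannosidases trim. MGAT enzymes then add branches of N-acetylglucosamine, and galactosyl-, fucosyl- and sialyltransferases extend and cap the branches. A separate route, mucin-type O-glycosylation, starts when a GALNT enzyme attaches N-acetylgalactosamine to serine or threonine, after which GCNT and B3GNT enzymes branch or lengthen the chain. Hepatocytes secrete most plasma glycoproteins, and changes of branching, core fucose and sialic acid on them have long been studied in liver cancer.

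DEPDC1, against which the siRNA was directed, had a log2 expression of 5.15 in the siRNA array and 7.82 in the NC array, a difference of -2.67. All 10 hepatocyte markers with a probe set of their own were at or above the detection threshold in both arrays, ALB (albumin) at 11.39 in the siRNA array and 11.89 in the NC array. None of 5 endothelial markers reached the threshold in either array, and among 6 leukocyte markers only CD14 and LYZ did, with PTPRC, the pan-leukocyte marker, at 2.38 in the siRNA array and 2.28 in the NC array. Among 4 cholangiocyte markers, SOX9, EPCAM and KRT19 reached it in both arrays. Summed levels differed most in the hepatocyte and the fibroblast and stellate lists. Among the hepatocyte markers, AFP, SERPINA1, APOB and TF differed by -1.97, -1.67, -1.35 and -1.09 on the log2 scale, and TTR by 1.41. The log2 of the summed linear level of the hepatocyte markers was 13.20 in the siRNA array and 13.85 in the NC array, with 8 of 10 lower. That of the 11 fibroblast and stellate cell markers was 10.60 in the siRNA array and 8.998 in the NC array, with 6 of the 11 at the threshold in both arrays and PDGFRB, DCN, THY1, ACTA2 and POSTN under it in both. In that list LUM, FBN1 and COL1A2 were higher by 2.31, 2.19 and 1.07 on the log2 scale, the others lay between -0.40 and 0.24, and the median over all 11 was 0.15. The log2 summed level of the leukocyte markers was 7.97 in the siRNA array and 7.56 in the NC array, with LYZ higher by 1.20. That of the cholangiocyte markers was 10.49 in the siRNA array and 10.28 in the NC array. The part of all these markers in the differences below was not tested. In bulk RNA, fewer cells of a type and less RNA per cell cannot be told apart.

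Among the 48 detected members, MGAT4A was the 1 gene lower by at least 2-fold with the siRNA, and 6 genes had measured values higher by at least 2-fold: B3GALT2, B3GALT1, GALNT10, GALNT13, ST6GALNAC3 and GCNT3. For B3GALT1 the NC value was under the threshold and the fold is known only as at least 1.72, so 5 were at least 2-fold higher once such values were set to the threshold. The counts and shares that follow use measured values. Over all 11352 detected genes, the shares past 2-fold were 0.863% on the lower and 1.94% on the higher side. At 1.5-fold the members numbered 2 lower and 8 higher, with GALNT1 added on the lower side and GCNT4 and MAN2A1 on the higher side, and the shares over all detected genes were 3.74% lower and 6.03% higher. With each array centred on its median over detected genes, the split at 1.5-fold was 4 lower and 8 higher, B3GNT5 and GCNT2 being added. Because these differences were known when the set was proposed, nothing is read from its counts against those shares. Of the 48 members, 38 lay within 1.5-fold, beside 10243 of all 11352 detected genes. With the siRNA 23 members were lower, 23 were higher and 2 had identical values. Over all detected genes these numbers were 5461, 5666 and 225. The median difference was 0.00 for the detected members and 0.00 for all detected genes, and the median absolute difference was 0.18 for the members and 0.19 for all detected genes. A single array per group leaves no spread between replicates, so no test was run and no difference here has a replicate check. As a gauge of measurement noise alone, different probe sets of the same gene gave differences with a median range of 0.12 and a 90th percentile of 0.44 on the log2 scale, over 392 genes measured by several detected probe sets, those with identical values being counted once. Probe sets that have probes in common would make this gauge too narrow, and those that read different transcripts would widen it. An error that the probe sets of an array share is not in it.

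**Figure D1:**
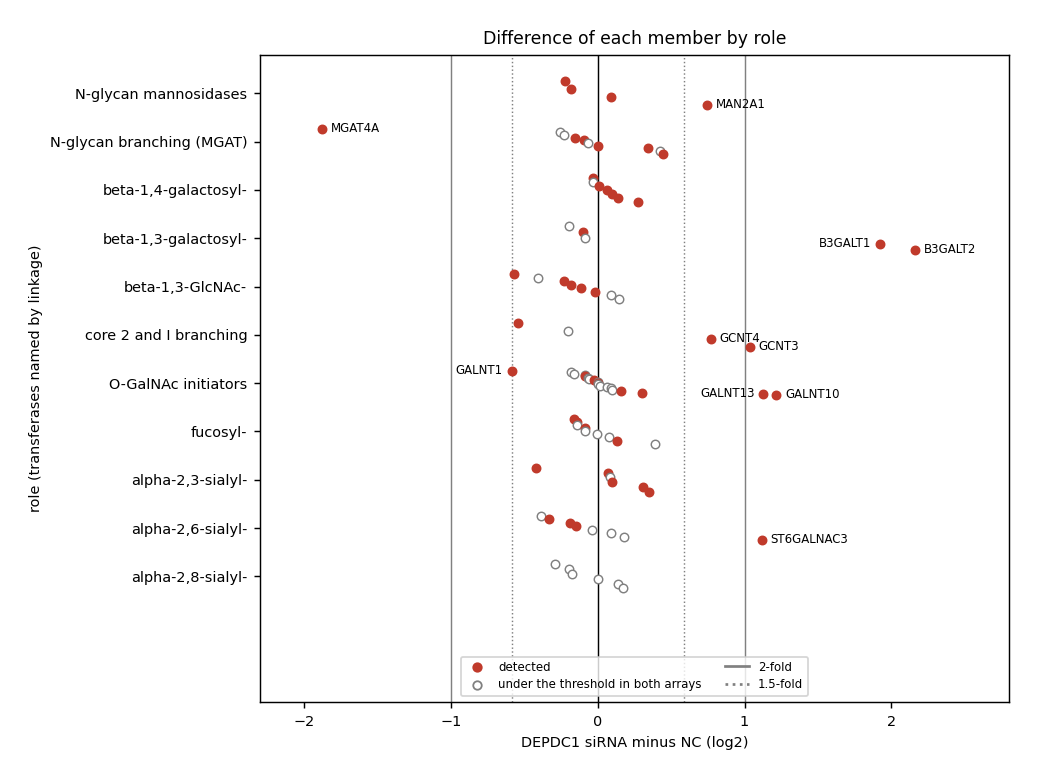
The difference between the siRNA and NC arrays (log2, horizontal axis) of each member, 1 point per gene, by role on the vertical axis (B3GALT5-AS1, which has no enzyme role, is left out). Filled points are detected genes, open points lie under the threshold in both arrays, and lines mark 1.5-fold and 2-fold. MGAT4A stands alone at the left, at -1.88, and B3GALT2 stands farthest right, at 2.16, next to B3GALT1, whose measured 1.92 rests on an NC value under the threshold.

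**Figure D2:**
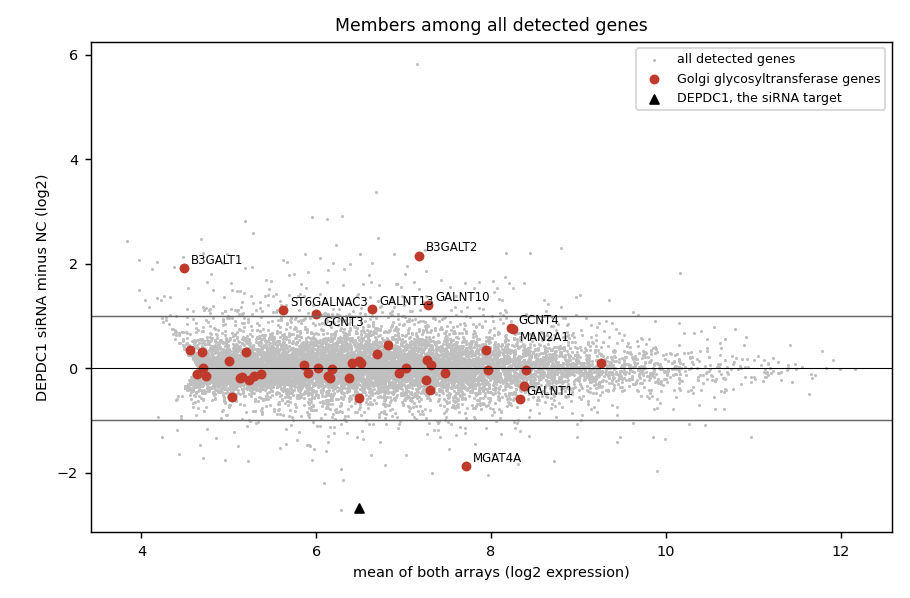
The difference between the siRNA and NC arrays (log2, vertical axis) against the mean of both arrays (log2 expression, horizontal axis), 1 point per detected gene, with the 48 members in red, DEPDC1 as a triangle and horizontal lines at 2-fold. The members at least 2-fold different lie in the left and middle parts of the horizontal axis. Of these, all but B3GALT1 and ST6GALNAC3 reach the 75th percentile of all probe sets with their higher value. Most members lie inside the band of the other genes.

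The start regions of the genes at least 2-fold different in measured values were read from RefSeq's promoter table (GRCh38.p14), to show how alike they are in base composition and motifs. The table held 65 of the 87 members and 6 of these 7 genes, MGAT4A being the other. Only the 250 bases before the annotated start were used, and of genes with several entries the one listed first. Of the 6, 3 are printed 5′ to 3′ on the gene's own strand, one AT-rich and a pair GC-rich. The B3GALT2 region lies at chr1:193186614-193186863 on the minus strand, the GALNT10 region at chr5:154190483-154190732 on the plus strand and the ST6GALNAC3 region at chr1:76074496-76074745 on the plus strand. Capitals mark the motifs found, the E-box CACGTG and the GC box GGGCGG.
B3GALT2: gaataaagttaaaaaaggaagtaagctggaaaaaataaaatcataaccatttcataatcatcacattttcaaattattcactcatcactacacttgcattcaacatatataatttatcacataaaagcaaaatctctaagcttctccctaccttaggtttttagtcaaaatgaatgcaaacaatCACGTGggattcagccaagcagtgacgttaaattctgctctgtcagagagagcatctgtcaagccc
GALNT10: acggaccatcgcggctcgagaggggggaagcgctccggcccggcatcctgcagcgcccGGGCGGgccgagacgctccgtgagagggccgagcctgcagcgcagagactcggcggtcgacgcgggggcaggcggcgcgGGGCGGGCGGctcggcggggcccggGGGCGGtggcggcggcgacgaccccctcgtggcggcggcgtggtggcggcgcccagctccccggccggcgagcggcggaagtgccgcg
ST6GALNAC3: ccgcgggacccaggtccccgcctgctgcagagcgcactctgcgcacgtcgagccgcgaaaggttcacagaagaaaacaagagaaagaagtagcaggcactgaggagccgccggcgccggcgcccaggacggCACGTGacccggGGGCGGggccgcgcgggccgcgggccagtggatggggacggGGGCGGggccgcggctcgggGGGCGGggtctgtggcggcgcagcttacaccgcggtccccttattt
These 6 regions differed widely in base composition. The G and C content was 33.6% for B3GALT2, 40.4% for GCNT3 and 44.4% for GALNT13, against 71.6% for B3GALT1, 73.2% for ST6GALNAC3 and 82.4% for GALNT10. The median was 69.2% over 42 detected members with an entry and 58.0% over all 35116 promoters. CpG dinucleotides numbered 2 for B3GALT2, 2 for GCNT3 and 1 for GALNT13, but 23 for B3GALT1, 33 for ST6GALNAC3 and 46 for GALNT10. The genes that were higher in the siRNA array thus included both CpG-poor and CpG-rich starts.

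In all, 8 motifs were searched on both strands of these regions, by letters alone. The GC box GGGCGG was found in 2 of the 6 regions, GALNT10 with 4 matches, of which a pair overlaps, and ST6GALNAC3 with 3. It was in 61.9% of the 42 detected members with an entry and in 42.6% of all promoters. The E-box CACGTG was found in B3GALT2, at positions -66 to -61 relative to the start, and in ST6GALNAC3. It was in 9.52% of the detected members with an entry and in 6.34% of all promoters. The TATA box TATAAA (10.7% of all promoters), the TEAD motif GGAATG (11.9%), the AP-1 motif TGANTCA (6.57%), the FOXA motif TGTTTAC (2.98%), the HNF4 motif CAAAGTCCA (0.325%) and the palindromic HNF1 consensus, given here by name (0.0057%), were in none of the 6. A match is a description of letters and not a binding site, and a missing match says only that those letters are not in this window.

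The 4 mannosidase genes of the set, whose enzymes trim mannose residues before and after the first branch is added, were all detected. Of the 4, 1 differed by more than 1.5-fold. MAN2A1, alpha-mannosidase II, which removes the last mannoses so that complex N-glycans can form, had a log2 expression of 8.63 in the siRNA array and 7.88 in the NC array. It was 1.68-fold higher in the siRNA array. Its paralog MAN2A2 had 6.06 in the siRNA array and 6.24 in the NC array. Of the class I mannosidases in the set, MAN1A1 had 9.30 in the siRNA array and 9.21 in the NC array. MAN1A2 had 7.14 in the siRNA array and 7.36 in the NC array. These 3 differences were between -0.22 and 0.09.

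MGAT4A had the lowest difference of the set. It encodes N-acetylglucosaminyltransferase IVa, which adds a branch to one mannose arm of the N-glycan and so helps make tri- and tetra-antennary glycans. In mice the enzyme is known for keeping the glucose transporter GLUT2 at the surface of pancreatic beta cells. MGAT4A (probe set 8054135) had a log2 expression of 6.78 in the siRNA array and 8.65 in the NC array, both above the threshold. The difference of -1.88, or 3.67-fold lower, placed it 9th from the lowest among 11352 detected genes. Its isoenzyme MGAT4B, which adds the same branch, had 7.04 in the siRNA array and 6.60 in the NC array, 1.36-fold higher. The measured differences of the isoenzymes thus lay on opposite sides of 0, and that of MGAT4B did not reach 1.5-fold.

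The other detected branching enzymes showed no difference of 1.5-fold. MGAT5, which makes the beta-1,6 branch much studied in metastasis, had 8.11 in the siRNA array and 7.77 in the NC array, 1.27-fold higher. MGAT1, which adds the first branch of hybrid and complex glycans, had the identical value of 6.02 in both arrays. MGAT2, which adds the next, had 5.86 in the siRNA array and 5.95 in the NC array. The values of MGAT5B, a brain-type relative of MGAT5, were close to the threshold, at 4.66 in the siRNA array and 4.82 in the NC array. MGAT1 and MGAT2, which add the first branches, thus differed by 0.00 and -0.10. MGAT3, which adds the bisecting residue, and MGAT4C, MGAT4D and MGAT4EP were under the threshold in both arrays.

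**Figure D3:**
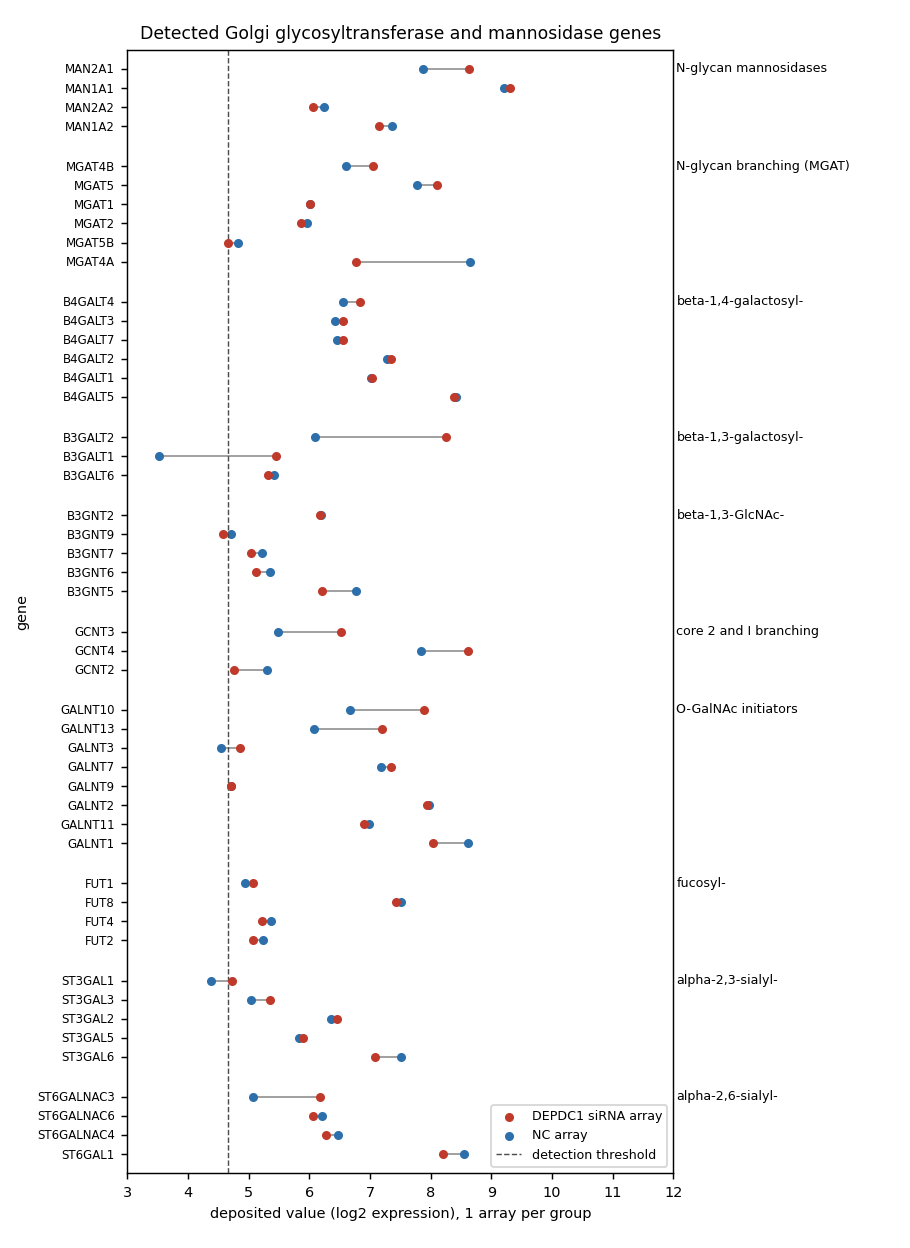
The deposited log2 expression (horizontal axis) of the 48 detected members in the siRNA array (red) and the NC array (blue), 1 array each, with the members in rows grouped by role and ordered by their difference. The dashed line is the detection threshold. The longest lines join the values of B3GALT2, B3GALT1 and MGAT4A, and only MGAT4A of these has its siRNA value on the left.

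Among the beta-1,3-galactosyltransferases, B3GALT2 had the highest difference of the 48 detected members. B3GALT2 and B3GALT1 add galactose in beta-1,3 linkage to N-acetylglucosamine, which makes type 1 chains, the backbone of Lewis a and Lewis b antigens. B3GALT2 (probe set 7923034) had a log2 expression of 8.25 in the siRNA array and 6.10 in the NC array. It was 4.46-fold higher, a difference of 2.16, and ranked 21st from the highest among the 11352 detected genes. B3GALT1 (probe set 8046078) had 5.44 in the siRNA array and 3.52, under the threshold, in the NC array. Its measured difference was 1.92, and against the threshold it was at least 1.72-fold higher, so its size is known only as that bound. B3GALT6, which builds the linker of glycosaminoglycans and not type 1 chains, had 5.32 in the siRNA array and 5.42 in the NC array. B3GALT5, the main type 1 chain enzyme of gastrointestinal epithelium, had 2.53 in the siRNA array and 2.61 in the NC array, under the threshold in both, as was B3GALT4, the ganglioside GM1 synthase.

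The beta-1,4-galactosyltransferases make the more common type 2 chains, lactosylceramide and the glycosaminoglycan linker. All 6 detected members lay within 1.5-fold, as did 10243 of all 11352 detected genes. The differences of the 6 ran from -0.03 to 0.27. B4GALT1, the main enzyme of N-glycan galactosylation, had 7.03 in the siRNA array and 7.02 in the NC array. B4GALT4 had the highest difference, with 6.83 in the siRNA array and 6.56 in the NC array, and B4GALT5, a lactosylceramide synthase, the lowest, with 8.38 in the siRNA array and 8.41 in the NC array. B4GALT2, B4GALT3 and B4GALT7 differed by 0.06, 0.14 and 0.10. B4GALT6 lay just under the threshold, with 4.59 in the siRNA array and 4.62 in the NC array.

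All 5 detected beta-1,3-N-acetylglucosaminyltransferases were lower with the siRNA, none by 1.5-fold. Over all 11352 detected genes, 5461 were lower and 10243 lay within 1.5-fold. Of the family members under the threshold in both arrays, B3GNT3 and B3GNT8 measured higher and B3GNT4 lower. B3GNT5, which starts the lacto- and neolacto-series of glycolipids, had 6.21 in the siRNA array and 6.77 in the NC array, 1.48-fold lower and just inside the 1.5-fold limit, which it passed after quantile normalization (-0.60) and with the arrays centred (-0.63). B3GNT6, the core 3 O-glycan synthase, B3GNT7, an enzyme of keratan sulphate, and B3GNT9 differed by -0.23, -0.18 and -0.12. B3GNT9 was under the threshold in the siRNA array. B3GNT2, the main enzyme of poly-N-acetyllactosamine chains, had 6.17 in the siRNA array and 6.19 in the NC array. After quantile normalization or lowess 1 more gene of this family passed the threshold, and 5 of 6 were lower.

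The branching enzymes of O-glycans and I antigen lay on both sides of 0. GCNT3, which makes core 2, core 4 and I branches and is typical of mucous epithelia, had 6.51 in the siRNA array and 5.48 in the NC array. It was 2.05-fold higher, next to the 2-fold limit, and did not reach 2-fold with the arrays centred. GCNT4, another core 2 enzyme, had 8.62 in the siRNA array and 7.85 in the NC array, 1.71-fold higher. GCNT2, the I-branching enzyme, had 4.76 in the siRNA array and 5.31 in the NC array, 1.46-fold lower. GCNT3 and GCNT4 were thus past 1.5-fold and GCNT2 was not. GCNT1, the leukocyte-type core 2 enzyme, had no probe set of its own here.

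Of the mucin-type initiators, 8 of 19 were detected, with a median difference of 0.08. GALNT10, which prefers peptides that already carry N-acetylgalactosamine, had 7.89 in the siRNA array and 6.67 in the NC array, 2.32-fold higher. GALNT13, an enzyme best known from neurons, had 7.20 in the siRNA array and 6.08 in the NC array, 2.19-fold higher. GALNT1, a broadly expressed initiator and the closest relative of GALNT13, had 8.03 in the siRNA array and 8.62 in the NC array, 1.502-fold lower. This value lay at the 1.5-fold limit, and GALNT1 was inside it after lowess. GALNT13 and GALNT1 were on opposite sides of 0, like the MGAT4 pair.

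The remaining initiators differed by less than 1.5-fold. GALNT2, another widely expressed initiator, had 7.95 in the siRNA array and 7.97 in the NC array. GALNT7, which like GALNT10 prefers glycosylated peptides, had 7.34 in the siRNA array and 7.18 in the NC array, and GALNT11, which modifies low-density lipoprotein receptor family proteins, 6.90 in the siRNA array and 6.99 in the NC array. GALNT3, known for protecting FGF23, had 4.85 in the siRNA array and 4.55, under the threshold, in the NC array, a bound of at least 1.14-fold higher. GALNT9 had the identical value of 4.70 in both arrays. GALNT4 was measured only by a probe set shared with the read-through gene POC1B-GALNT4, which had 5.77 in the siRNA array and 5.55 in the NC array.

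The fucosyltransferases showed no difference of 1.5-fold among the 4 detected, and 10243 of all 11352 detected genes showed none either. FUT8 adds the core fucose that distinguishes the cancer-associated glycoform of alpha-fetoprotein. It had 7.43 in the siRNA array and 7.51 in the NC array, a difference of -0.09. FUT4, a Lewis x enzyme, differed by -0.14, FUT2, the secretor enzyme, by -0.16 and FUT1, the H antigen enzyme, by 0.13. FUT3, FUT5 and FUT6, close paralogs that probes may not fully separate, and FUT7 and FUT9 were under the threshold in both arrays. FUT6 makes fucosylated plasma glycoproteins in liver, and its values were 4.20 in the siRNA array and 4.28 in the NC array.

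Among the sialyltransferases, ST6GALNAC3 was the 1 member at least 1.5-fold different. It adds alpha-2,6-linked sialic acid to the N-acetylgalactosamine of sialylated O-glycans and gangliosides. The probe set with the higher mean (8180309) had 6.18 in the siRNA array and 5.07 in the NC array, 2.17-fold higher, a difference of 1.12. The other probe set (7902425) had 5.51 in the siRNA array and 4.79 in the NC array, a difference of 0.72. Both were higher in the siRNA array, but only the first passed 2-fold, and the mean of both, 0.92, did not.

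ST6GAL1, which caps N-glycans of plasma glycoproteins with alpha-2,6-linked sialic acid and is strongly expressed in liver, had 8.21 in the siRNA array and 8.54 in the NC array, 1.26-fold lower. ST6GALNAC4 and ST6GALNAC6 differed by -0.19 and -0.15. The 3 probe sets of ST6GALNAC4 gave -0.24, -0.19 and -0.21, and the 2 of ST6GALNAC6 both gave -0.15. The probe sets of these genes were thus much closer to each other than those of ST6GALNAC3. Probe sets with probes in common would lie this close, and whether these have any was not tested.

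Of the alpha-2,3-sialyltransferases, 5 of 6 were detected. All 5 lay within 1.5-fold, as did 10243 of all 11352 detected genes. ST3GAL6, which acts on type 2 chains, had 7.09 in the siRNA array and 7.51 in the NC array, 1.34-fold lower. ST3GAL3 had 5.35 in the siRNA array and 5.04 in the NC array, 1.24-fold higher, and ST3GAL1, a core 1 O-glycan enzyme, 4.73 in the siRNA array and 4.38, under the threshold, in the NC array. ST3GAL2 differed by 0.10 and ST3GAL5, the ganglioside GM3 synthase, by 0.07. The alpha-2,8-sialyltransferases, which build polysialic acid and the complex gangliosides, were all 6 under the threshold in both arrays.

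In all, 39 members were under the threshold in both arrays. Their values ran from 2.06 to 4.66 in the siRNA array and from 2.06 to 4.62 in the NC array, and their measured differences from -0.41 to 0.43. Besides those already named they were B3GNT4, B3GNT8, ST3GAL4, ST6GAL2, ST6GALNAC1, ST6GALNAC2, ST6GALNAC5, B3GALT5-AS1 and 11 initiators, GALNT5, GALNT6, GALNT8, GALNT12, GALNT14, GALNT15, GALNT16, GALNT17, GALNT18, GALNTL5 and GALNTL6. B3GNT3 was nearest below the threshold, at 4.6577 against 4.658, and B3GNT9 nearest above it, at 4.70. None of the 39 would have counted as 1.5-fold different without the filter. A further 3 genes that older nomenclature places in these families, POFUT3 (FUT10), POFUT4 (FUT11) and QTGAL (B3GNTL1), carry newer symbols in the annotation and fall outside the rule. Their differences were -0.51, -0.18 and -0.09.

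The other steps of glycosylation were taken from lists chosen by role. The lists are described beside the shares over all detected genes, 1.94% higher and 0.863% lower at 2-fold and 6.03% higher and 3.74% lower at 1.5-fold. In the endoplasmic reticulum, the 19 detected genes of N-glycan precursor assembly had 2 at least 1.5-fold higher and none lower, with a median difference of 0.11. DHDDS, a subunit of the enzyme that makes dolichol, had 8.64 in the siRNA array and 7.88 in the NC array, and ALG14, which helps add the second sugar of the precursor, 6.72 in the siRNA array and 6.02 in the NC array. None of the 10 detected oligosaccharyltransferase genes was 1.5-fold different, and their median was 0.09.

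Of 12 detected genes of ER glycan trimming and quality control, 3 were at least 1.5-fold higher and none lower, with a median of 0.15. GANAB, the catalytic subunit of glucosidase II, which removes glucose from newly attached N-glycans, had 9.26 in the siRNA array and 7.96 in the NC array, 2.47-fold higher. EDEM2, which starts mannose trimming for degradation, was 1.76-fold higher, and CALR, the lectin chaperone calreticulin, 1.59-fold higher. CALR had 10.66 in the siRNA array and 9.99 in the NC array. Over the ER lists together the genes past 1.5-fold were all higher in the siRNA array.

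Sugar donors and their carriers were mixed. Among 19 detected genes of nucleotide sugar synthesis, GNPNAT1, an enzyme of the hexosamine pathway that leads to UDP-N-acetylglucosamine, had 6.76 in the siRNA array and 7.58 in the NC array, 1.77-fold lower. GMPPA, which regulates GDP-mannose synthesis, was 1.62-fold higher. Of 12 detected nucleotide sugar transporters 2 were at least 1.5-fold lower and none higher: SLC35B4 had 5.91 in the siRNA array and 6.82 in the NC array, and SLC35D1 7.44 in the siRNA array and 8.20 in the NC array. Both carry UDP-sugars into the ER or Golgi. The medians of these lists were 0.08 and 0.07.

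Among 18 detected genes of Golgi structure and the COG complex, which keeps Golgi enzymes in place, 3 were at least 1.5-fold higher and none lower, with a median of 0.13. GOLGA2, the matrix protein GM130, had 7.34 in the siRNA array and 6.14 in the NC array, 2.29-fold higher, and GOLGA5 and COG4 were 1.69-fold and 1.64-fold higher. In glycosaminoglycan synthesis, with 22 detected genes and a median of 0.08, CSGALNACT1, which starts chondroitin chains, had 7.08 in the siRNA array and 5.20 in the NC array, 3.68-fold higher. B3GAT3, of the linker, had 6.27 in the siRNA array and 5.68 in the NC array, at the 1.5-fold limit, and CHST3, a chondroitin sulphotransferase, had 6.05 in the siRNA array and 6.89 in the NC array, 1.79-fold lower. Chondroitin genes thus lay on both sides.

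Of 16 detected genes of O-mannose, O-fucose and O-glucose glycosylation, POMK was 1.79-fold lower and POMGNT1 1.58-fold higher, both acting on the O-mannose glycans of dystroglycan, and the median was -0.04. Among 18 detected Golgi transferases outside the symbol rule, UGCG, which makes glucosylceramide, was 1.55-fold higher, none was 1.5-fold lower and the median was -0.07. In 13 detected glycan-binding receptors and galectins, LGALS14, a galectin best known from placenta, had 5.86 in the siRNA array and 7.71 in the NC array, 3.62-fold lower. LGALS1 had 8.39 in the siRNA array and 7.48 in the NC array, and IGF2R, the mannose 6-phosphate receptor, was 1.82-fold higher, with a list median of 0.26. Of 12 detected genes of glycan breakdown, HEXA was 1.57-fold higher, and the median was 0.09. With the arrays centred, these 11 medians lay between -0.13 and 0.20 and kept their sign, beside a median of -0.06 for all detected genes. Centring left 1 gene higher and 3 lower by 1.5-fold in glycosaminoglycan synthesis, against 2 higher and 1 lower uncentred, and 1 higher and 2 lower in O-mannose, O-fucose and O-glucose glycosylation, against 1 each way. UGCG then lay within 1.5-fold. Some medians depended on the filter. That of the receptors and galectins was -0.002 with no filter and 0.05 under 3 other settings (the 75th percentile filter, the threshold from probe sets of 1 gene, shared probe sets included). That of the O-mannose, O-fucose and O-glucose genes was 0.11 with no filter and 0.009 with the threshold from probe sets of 1 gene, and that of the transporters was -0.01 with the 75th percentile filter.

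**Figure D4:**
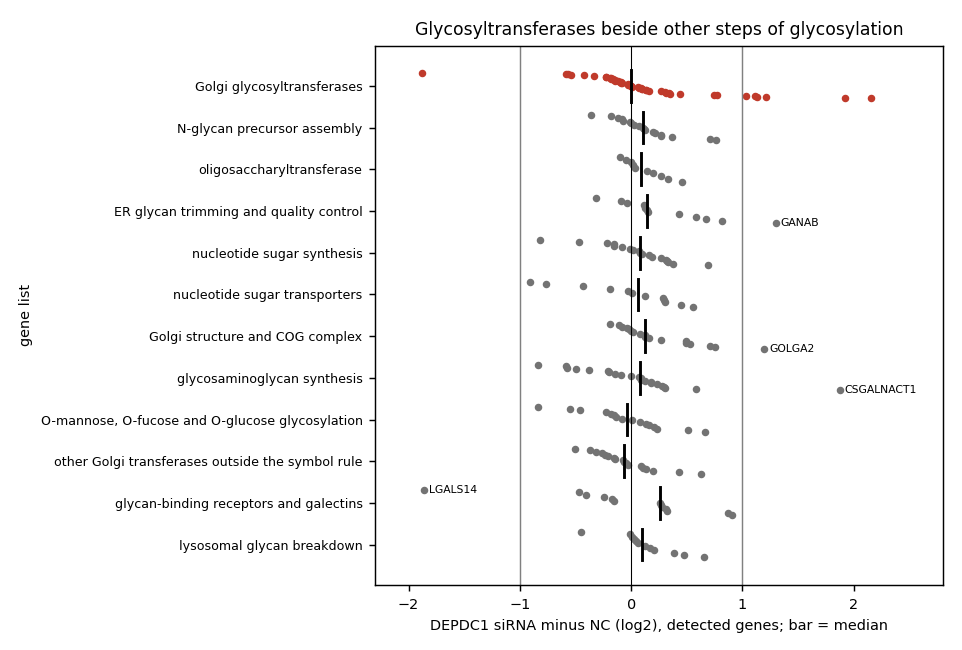
Differences between the siRNA and NC arrays (log2, horizontal axis) of the detected genes in the glycosyltransferase set (red, upper row) and in 11 lists of other glycosylation steps (grey), 1 point per gene, with the median of each list as a bar and vertical lines at 2-fold. The medians all lie near 0, and the points past 2-fold outside the upper row are GANAB, GOLGA2, CSGALNACT1 and LGALS14.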

How the data were processed

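Total RNA of the siRNA and NC cultures was hybridised as biotinylated cRNA to 1 expression array each. A pair of programs is named per the submitters' processing notes: Transcriptome Analysis Console 3.0 and Affymetrix Expression Console. Their role, the background correction and the normalization are not given in the sources used here. The deposited table held 1 value for each of 33297 probe sets and array. The labels give no unit. The deposited values, between 1.39 and 12.7 (medians 4.64 for siRNA and 4.67 for NC), were taken as log2 expression. They were treated as already normalized because, sorted, the arrays were never more than 0.0997 apart. The number of arrays limits the precision. Detection calls and scanner intensities were not analysed here.

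Probe sets listing 1 gene (19460 of 33297) were named by GEO's platform annotation, with symbols updated through Entrez identifiers against RefSeq (GRCh38.p14, 19429 matched). Of several probe sets of a gene, the brightest on average was used. Each difference is siRNA minus NC. Where 1 value lay under the detection threshold, the fold is a bound against it. The code for the calls was run on simulated data (pandas 2.3.3, numpy 2.4.6, lowess from statsmodels 0.14.6). Those data had differences set past 2-fold and an assumed noise, so the run says nothing about the calls reported here. The members and gene lists were chosen with earlier results of these data known. Named were all members and, of each further list, up to 4 detected genes at least 1.5-fold different with the largest differences. Marker genes and genes given as renamed or shared were named as checks. The alternatives varied the filter on low values, the normalization (quantile, centring, lowess with a span of 0.3) and the choice of probe set.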

Additional observations from a re-analysis of the deposited data

How the results depend on the processing

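Over 11 alternatives of filter, normalization and probe set choice, MGAT4A was the 1 member at least 2-fold lower in each, and the number at least 2-fold higher was between 4 and 6. Lost from that side were B3GALT1 (75th percentile filter, mean filter, values raised to the threshold, which gave 0.79), ST6GALNAC3 (75th percentile filter, mean of its probe sets, 0.92, or the dimmer probe set, 0.72) and GCNT3 (arrays centred). The number at least 1.5-fold lower was 2 as reported, 3 after quantile normalization (B3GNT5 added), 4 with each array centred (B3GNT5 and GCNT2 added) and 1 after lowess (GALNT1 lost). The number at least 1.5-fold higher was between 6 and 8. The median difference of the members ran from -0.06 with the arrays centred to 0.09 with the 75th percentile filter. Of 496 member differences under the alternatives, 492 moved by less than 0.116, the median range between probe sets of a gene, and none with a 1.5-fold difference changed sign. Many of the 496 could not move. The filters choose genes and leave each difference as it is, and the choice of probe set alters only genes with several. Centring shifts every member by the same amount. The count of 492 is thus no measure of stability. No paired analysis was possible because each group has 1 array, and no array could be left out. The cause of these shifts was not tested. With no detection calls used, the signal over background of genes near the threshold is unknown.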

Other observations

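Of the 87 members, 5 had the same deposited value in both arrays: MGAT1, GALNT9, GALNT17, GALNTL5 and ST8SIA3. Over all 18417 genes, 886 did, which is 4.81%, beside 5.75% of the members. Several members had probe sets with identical values, the 3 of B3GALT4 (3.90 in the siRNA array and 4.09 in the NC array) and the pairs of ST6GALNAC2 and ST6GALNAC5. These count as 1 measurement each.

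The 7 members at least 2-fold different in measured values lie on 4 chromosomes. MGAT4A, B3GALT1 and GALNT13 are on chromosome 2, which holds 8 of the 48 detected members. B3GALT2 and ST6GALNAC3 are on chromosome 1, which also holds 8, GALNT10 is on chromosome 5 and GCNT3 on chromosome 15. Nothing is read from these counts. On chromosome 2, MGAT4A was lower and B3GALT1 and GALNT13 higher in the siRNA array.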
